A study of Rattus norvegicus with 24 samples.

Results

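Imprinted genes are transcribed mainly from the allele of one parent. Peg3, Plagl1, Zdbf2, Ndn, Magel2, Nnat, Dlk1, Mest and Snrpn are known in the mouse as genes of this kind that are read from the paternal allele, and most of them are known for high levels in the hypothalamus. Ndn, Magel2 and Snrpn belong to the region that is lost in Prader-Willi syndrome, a disorder of feeding, growth and hormone release. The parental allele was not measured here, so each value below is the sum over both alleles. The 9 genes were taken by symbol from a table of 35032 genes, and all 9 were found and passed the filter on low counts in every comparison below.

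mRNA had been sequenced from 24 strand-specific libraries of male Sprague-Dawley rats, an outbred strain, which were 7 weeks old when bought and were then given 1 week to adapt. The libraries formed 8 groups of 3, from 2 dissected brain regions and 4 treatments. One region, of the hypothalamus, is labelled PVN, which the study spells out as periventricular nucleus and which is read here as the paraventricular nucleus, the site of oxytocin, vasopressin and corticotropin-releasing neurons. The other, abbreviated CEA, was the amygdala's central nucleus. The treatments were normal control (NC), partial hepatectomy of the left liver lobe (HT), hepatectomy with electroacupuncture at the ST 36 and SP 6 points of the hind limb (EA), and hepatectomy with needles in the same points and no current (sham, SEA). Rats of all 4 treatments had been placed in a restraint device for the same time, so the controls were restrained too, but they had no operation. The tissue was taken a day after the last stimulation. By the study's methods 12 rats were divided among the 4 treatments, and brain samples were from different animals of a single batch. The labels name no animal for any library.

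Total counts ran from 13152772 to 18607032 per library. Levels are given as CPM, counts scaled to the same library total, with library sizes set by the trimmed mean of M values. The labelled regions were checked against marker genes. Sim1 and Otp, transcription factors that define PVN neurons, lay at 9.85 to 16.7 CPM and 23.2 to 30.1 CPM in the 12 PVN libraries, and at 0 to 0.955 CPM and 0.123 to 1.43 CPM in the 12 CEA libraries. The PVN libraries also held genes of neurons of other hypothalamic nuclei, with Hcrt at 139 to 298 CPM, Pomc at 13.3 to 64.4 CPM, Fezf1 at 9.47 to 26.5 CPM and Nr5a1 at 2.88 to 9.15 CPM, while Crh, a gene of PVN stress neurons, lay at 4.22 to 12.6 CPM. The markers therefore place these libraries in the hypothalamus but do not limit them to the paraventricular nucleus. The summed level of 9 markers of the central amygdala was 416 to 508 CPM in the PVN and 2282 to 4945 CPM in the CEA. Most of it came from Ppp1r1b (median 2022 CPM in the CEA), a gene also used as a striatum marker, while the medians of Isl1 (15.5 CPM in the PVN and 12.8 CPM in the CEA) and Crhr1 (6.10 and 5.45 CPM) were higher in the PVN. The 10 striatum markers separated the regions as well, at 363 to 578 CPM in the PVN and 2473 to 7578 CPM in the CEA, so the marker sums do not tell central amygdala from striatum tissue. In the CEA 3 libraries stood apart in 12 choroid plexus markers, which summed to 1141 CPM in NC replicate 2, 411 CPM in EA replicate 1 and 1876 CPM in SEA replicate 2, while the other CEA libraries held 10.1 to 29.7 CPM. CEA EA replicate 2 had 3.80% of its counts in mitochondrial genes, against 10.1% to 14.4% in the other CEA libraries. The study left a library of the CEA EA group out of its co-expression network because it differed strongly, and did not say which. All libraries of that group were kept here.

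The promoters of 4 members are shown, because Ndn and Magel2 are neighbours that differed in how far they separated the regions, and because Plagl1 and Dlk1 separated the regions most. Each run is 300 bases, 250 before and 50 after the gene start, 5′ to 3′ on the gene's strand, from RefSeq on the GRCr8 assembly, which is not the build of the count table. The motif searched was CG, which reads the same on both strands, and every CG is in capitals. CG is the dinucleotide that carries DNA methylation, the mark that distinguishes the parental alleles at imprinted loci.
Ndn (chr1:125260809-125261108, + strand): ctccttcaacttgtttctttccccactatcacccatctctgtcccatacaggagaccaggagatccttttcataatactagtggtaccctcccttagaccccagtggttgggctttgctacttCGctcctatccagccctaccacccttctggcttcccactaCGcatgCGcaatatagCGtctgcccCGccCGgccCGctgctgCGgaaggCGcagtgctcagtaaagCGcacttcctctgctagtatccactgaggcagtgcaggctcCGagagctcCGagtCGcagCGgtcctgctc
Magel2 (chr1:125291783-125292082, + strand): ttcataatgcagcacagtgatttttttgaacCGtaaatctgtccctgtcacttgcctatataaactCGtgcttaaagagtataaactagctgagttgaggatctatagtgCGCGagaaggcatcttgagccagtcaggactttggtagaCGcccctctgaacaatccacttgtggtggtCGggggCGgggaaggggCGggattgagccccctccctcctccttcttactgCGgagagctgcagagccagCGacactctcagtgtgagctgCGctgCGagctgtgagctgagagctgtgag
Plagl1 (chr1:9297214-9297513, + strand): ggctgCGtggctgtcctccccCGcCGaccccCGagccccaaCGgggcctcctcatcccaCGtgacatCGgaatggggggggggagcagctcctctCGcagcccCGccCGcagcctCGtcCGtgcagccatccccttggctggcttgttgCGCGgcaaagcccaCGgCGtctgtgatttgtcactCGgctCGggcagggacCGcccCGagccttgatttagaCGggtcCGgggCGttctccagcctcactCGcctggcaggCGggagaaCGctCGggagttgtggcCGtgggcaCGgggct
Dlk1 (chr6:134192347-134192646, + strand): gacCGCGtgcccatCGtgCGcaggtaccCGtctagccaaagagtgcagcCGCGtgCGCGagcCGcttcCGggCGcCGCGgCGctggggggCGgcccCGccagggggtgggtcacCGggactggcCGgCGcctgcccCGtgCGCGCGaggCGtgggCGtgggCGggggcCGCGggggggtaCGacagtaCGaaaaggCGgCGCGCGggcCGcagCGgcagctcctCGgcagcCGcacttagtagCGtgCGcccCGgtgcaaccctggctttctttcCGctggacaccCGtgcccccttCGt

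Promoters of 8 of the 9 members were matched by symbol, and that of Nnat was not analysed here. The Dlk1 window held 45 CGs, and 1.66% of all 33469 promoters of that length held as many. The Plagl1 window held 29, which 11.5% of promoters reached. Ndn and Magel2 held 14 and 12, and 33.5% and 37.1% of all promoters held as many. Of the members not printed, Zdbf2 held 35 CGs, Mest 18, Peg3 16 and Snrpn 11. The number of CGs therefore ran from among the most CG-rich promoters in the rat to ordinary ones. DNA methylation was not measured.

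In the count table's own coordinates, whose build is not named there, Ndn (ENSRNOG00000010146) lay at chr1:122981755-122983351 and Magel2 (ENSRNOG00000010158) at chr1:123015746-123019522, both on the + strand. Peg3 (ENSRNOG00000014791) lay at chr1:70222964-70237443, Plagl1 (ENSRNOG00000025587) at chr1:7252349-7259035, Zdbf2 (ENSRNOG00000024114) at chr9:70059683-70089778 and Nnat (ENSRNOG00000024923) at chr3:154043873-154046330, all on the + strand. Dlk1 (ENSRNOG00000019584) lay at chr6:133552821-133583751 and Mest (ENSRNOG00000048088) at chr4:58053041-58063138, also on the + strand. Snrpn (ENSRNOG00000059764) was placed at chr1:195074330-195096460 on the - strand, far from Ndn and Magel2. On GRCr8 the Snrpn promoter lay at chr1:120338870-120339169, much nearer to that of Ndn at chr1:125260809-125261108. Whether the Snrpn row counted here is the same locus was not tested. The Snrpn model lay wholly inside Snurf, a gene on the same strand that shares its transcript. The libraries held 13 to 31 Snrpn counts and 3 to 16 Snurf counts. How reads that fit both genes were counted was not stated, so the level of Snrpn in this table is uncertain. Peg3 and Nnat overlapped genes on the opposite strand, Apeg3 and Gm23134, that had 0 counts in all 24 libraries.

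Levels can be compared between genes only per length, so CPM was divided by the gene length in kilobases. In the PVN, Nnat stood highest of the 9, at 924 ± 208 CPM per kb (SD, n = 12), and only 29 of 17768 genes had a higher mean level. Ndn followed at 348 ± 57.6 CPM per kb and Peg3 at 267 ± 26.8 CPM per kb, and the ranges of these neighbours overlapped. Dlk1 stood at 68.6 ± 6.58 CPM per kb, apart from its neighbours on both sides. Mest (26.4 ± 5.40), Magel2 (14.6 ± 1.91), Zdbf2 (12.5 ± 1.44) and Plagl1 (8.67 ± 1.38 CPM per kb) each overlapped the next in range, and Snrpn came last at 0.803 ± 0.180 CPM per kb. In the CEA the order began in the same way, with Nnat at 280 ± 86.2, Ndn at 127 ± 25.5 and Peg3 at 87.5 ± 15.3 CPM per kb, with overlapping ranges between Nnat and Ndn and between Ndn and Peg3. The remaining 6 followed as Mest (16.9 ± 3.79), Dlk1 (7.86 ± 4.23), Zdbf2 (3.12 ± 0.855), Magel2 (2.06 ± 0.867), Snrpn (1.08 ± 0.199) and Plagl1 (0.959 ± 0.434 CPM per kb), each overlapping the next. Mest and Dlk1, and Plagl1 and Snrpn, were apart in the PVN and overlapped in the CEA.

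**Figure D1:**
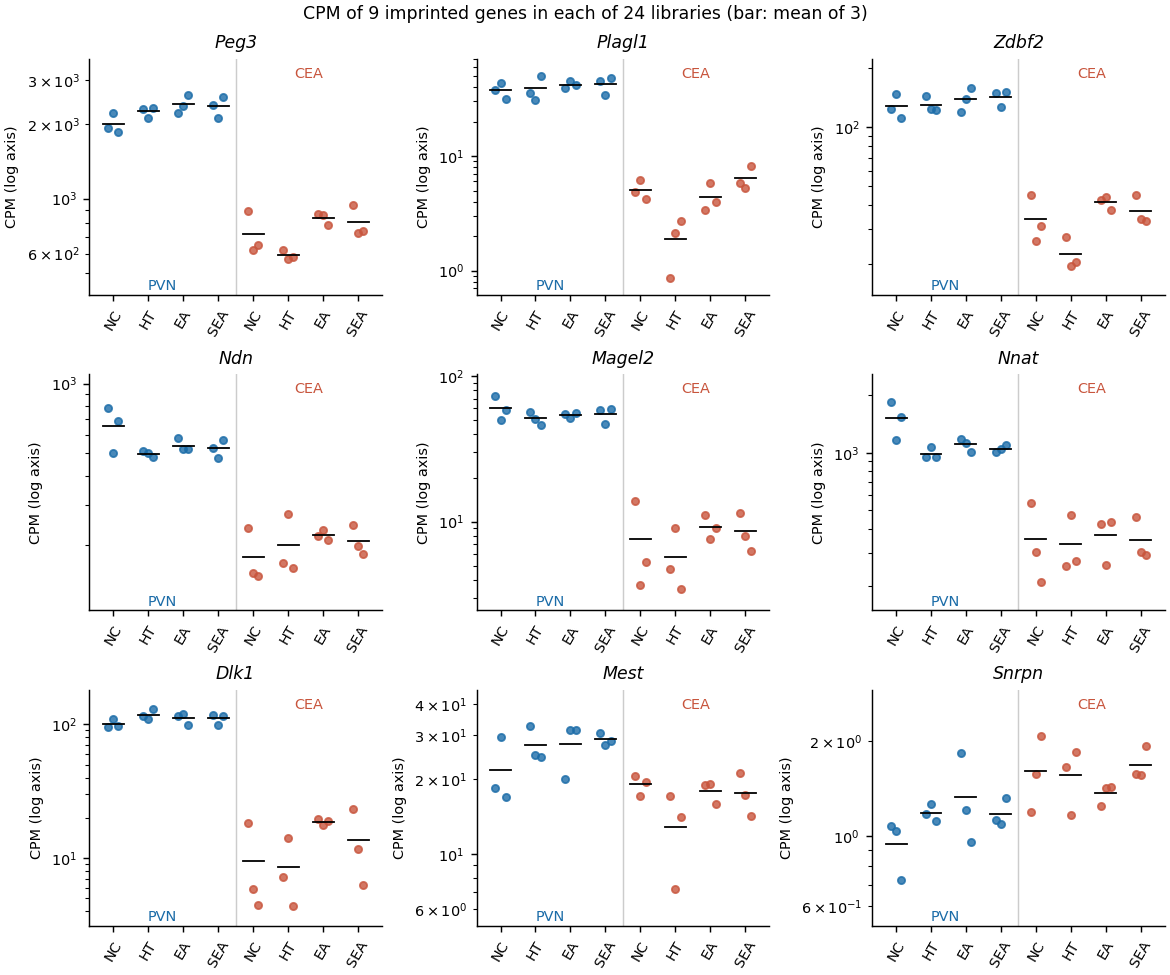
CPM of each of the 9 genes (log axis, one panel a gene) in the 24 libraries, by treatment, with PVN libraries in blue on the left and CEA libraries in red on the right; each point is a library and each bar the mean of 3. For 7 genes every PVN point lies above every CEA point, while the points of Mest and Snrpn overlap between the regions.

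The first comparison asked how the members differ between the 2 brain regions. The data showed 7 of the 9 members higher in every PVN library than in every CEA library, and the largest differences were those of Plagl1, Dlk1 and Magel2. How many of all genes separate the regions in this way was not counted, so the 7 have no background share beside them. In a fit over all 24 libraries with treatment as a covariate, 9 of 9 members passed the test, 8 lower and 1 higher in the CEA (edgeR's quasi-likelihood test, Benjamini-Hochberg adjusted p under 0.05). In the same fit 56.3% of the 17768 genes tested passed, and 29.4% passed and were lower in the CEA. The median log2 fold change of the members, CEA against PVN, was -1.73, and the median of all genes tested was -0.01. Other cell type markers also separated the regions without overlap: 10 oligodendrocyte markers summed to 10547 to 17782 CPM in the PVN and 27576 to 46619 CPM in the CEA, and 7 endothelium markers to 336 to 497 CPM and 547 to 792 CPM. Their part in the member values was not tested. The tissue was bulk, so fewer cells of a type and less RNA per cell cannot be told apart in these values.

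Plagl1, a zinc finger transcription factor, had 31.1 to 50.1 CPM in the PVN (median 40.3) and 0.860 to 8.24 CPM in the CEA (median 4.52). Every CEA library lay well below the lowest PVN library. The log2 fold change was -3.27 ± 0.19 (SE), a level 9.68 times as high in the PVN (adjusted p = 1.03e-12). Only 0.495% of genes tested had a log2 fold change as low. The CEA libraries held as few as 13 Plagl1 counts, so single CEA values are coarse.

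Dlk1, a membrane protein of the Delta family that acts on Notch signalling and on growth, had 96.0 to 129 CPM in the PVN (median 112) and 4.37 to 23.2 CPM in the CEA (median 13). The regions did not overlap, and the CEA libraries spread over a 5.29-fold range while the PVN libraries spread over 1.34-fold. The log2 fold change was -3.20 ± 0.23 (adjusted p = 5.51e-11), which 0.512% of genes tested reached.

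Ndn and Magel2, neighbouring genes of the MAGE family, were both lower in the CEA by unlike amounts. Ndn had 477 to 782 CPM in the PVN (median 520) and 147 to 273 CPM in the CEA (median 204). Its log2 fold change was -1.48 ± 0.11, or 2.78 times as high in the PVN (adjusted p = 5.64e-11). Magel2 had 46.4 to 73.2 CPM in the PVN (median 55.5) and 3.45 to 13.9 CPM in the CEA (median 7.77). Its log2 fold change was -2.86 ± 0.18, or 7.27 times as high in the PVN (adjusted p = 4.66e-12). Neither gene overlapped between the regions, and the difference between their fold changes was not tested.

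The remaining zinc finger genes, Peg3 and Zdbf2, were also lower in every CEA library. Peg3 had 1860 to 2605 CPM in the PVN (median 2259) and 573 to 940 CPM in the CEA (median 733), with a log2 fold change of -1.64 ± 0.08 (adjusted p = 3.4e-14). Zdbf2 had 111 to 160 CPM in the PVN (median 133) and 19.4 to 45.1 CPM in the CEA (median 33.6). The log2 fold change of Zdbf2 was -2.06 ± 0.11 (adjusted p = 4.55e-13). Nnat, a small proteolipid of the endoplasmic reticulum, had 947 to 1837 CPM in the PVN (median 1082) and 209 to 545 CPM in the CEA (median 302). Its log2 fold change was -1.73 ± 0.15 (adjusted p = 7.33e-10), and the regions again did not overlap.

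Mest, which encodes a protein of the hydrolase fold, separated the regions least among the genes that were lower in the CEA. It had 16.9 to 32.5 CPM in the PVN (median 27.8) and 7.2 to 21.2 CPM in the CEA (median 17.2). The ranges overlapped, because PVN NC replicates 1 and 3 (18.4 and 16.9 CPM) and PVN EA replicate 1 (20.1 CPM) lay among the CEA libraries. The log2 fold change was -0.68 ± 0.14 (adjusted p = 0.000231). Snrpn, a component of the splicing machinery, had 0.727 to 1.83 CPM in the PVN (median 1.12) and 1.17 to 2.07 CPM in the CEA (median 1.56). Its log2 fold change of 0.40 ± 0.14 passed the test (adjusted p = 0.0187), but the ranges overlapped and the limits on counting Snrpn given above apply.

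The region difference was then fitted within each treatment, in 4 separate sets of 6 libraries. In NC 7 of 9 members were called, all lower in the CEA, against 26.4% of genes called and 13.7% called lower. In HT 8 were called, all lower, against 21.3% called and 10.2% called lower. In EA 8 were called, all lower, against 27.8% and 13.8%, and in SEA 8 were called, all lower, against 30.5% and 15.4%. The 7 genes whose regions did not overlap over all libraries were called in each of the 4 treatments, with adjusted p of at most 0.00613.

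Log2 fold changes of Plagl1, CEA against PVN, were -2.90 ± 0.20 for the controls (NC) and -4.34 ± 0.39 after HT alone, and -3.24 ± 0.19 for EA and -2.73 ± 0.20 for SEA. Those of Dlk1 were -3.40 ± 0.50, -3.78 ± 0.39, -2.57 ± 0.11 and -2.99 ± 0.40 in the same order. Those of Magel2 were -2.99 ± 0.47, -3.17 ± 0.33, -2.56 ± 0.15 and -2.66 ± 0.22. The HT value was the lowest of the 4 for these genes, but single libraries decided this for Dlk1 and Magel2. Without CEA NC replicate 1 the NC values became -4.30 for Dlk1 and -3.77 for Magel2, below those in HT. Without CEA HT replicate 3 the HT value of Magel2 became -2.90, above that in NC. Leaving out CEA SEA replicate 1 moved the SEA value of Dlk1 to -3.60, still above that in HT. Zdbf2 and Peg3 were lowest in HT, at -2.55 ± 0.17 and -1.92 ± 0.12, and their other values ran from -1.93 to -1.75 and from -1.55 to -1.48. Ndn and Nnat were lowest in NC instead, at -1.89 ± 0.24 and -2.11 ± 0.36, with other values of -1.32 to -1.29 and -1.58 to -1.56. The tests of such differences are given with the treatments below. Mest was not called in NC (-0.20 ± 0.23, adjusted p = 0.569), and in HT, EA and SEA its values were -1.10 ± 0.30, -0.62 ± 0.18 and -0.70 ± 0.15 (adjusted p = 0.0402, 0.0355 and 0.0133). These 3 Mest calls were lost when single libraries were left out, with adjusted p up to 0.148. Snrpn was called in none of the 4 treatments, with values of 0.05 to 0.75.

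**Figure D2:**
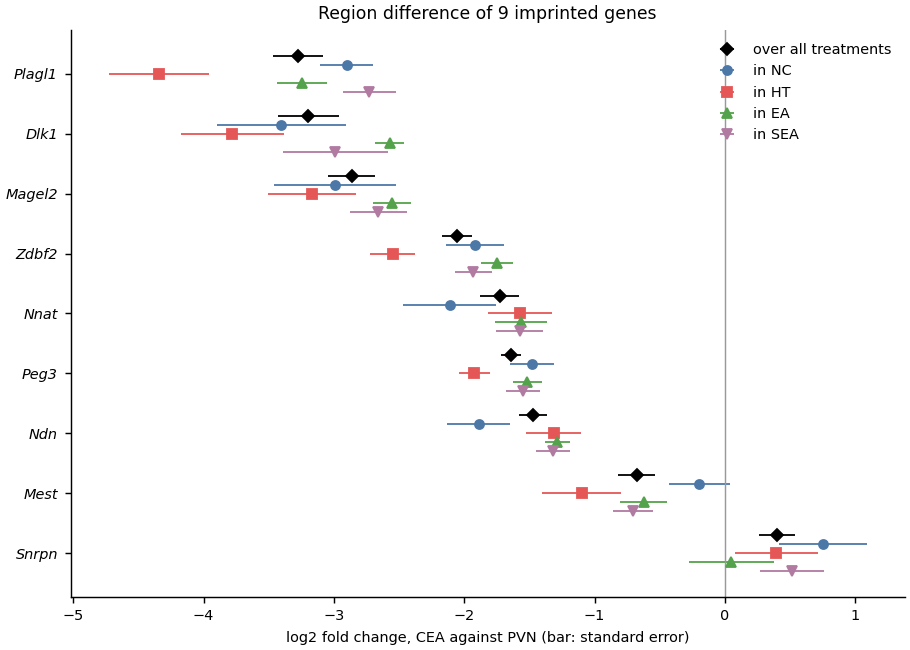
Log2 fold change, CEA against PVN, of each of the 9 genes (x axis; bars are standard errors) over all 24 libraries (black diamonds) and within NC, HT, EA and SEA. Plagl1, Dlk1 and Magel2 lie farthest to the left, and Snrpn alone lies to the right of 0 in the pooled fit.

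A list of 64 other genes known to be imprinted in mouse or human was set beside the members, and 50 of them were found and 46 tested. In the 24-library fit 32 were called, 24 lower and 8 higher in the CEA, beside 56.3% of all genes called and 29.4% called lower in the same fit. The median log2 fold change over the 46 was -0.29. The lowest was Calcr, the calcitonin receptor, at -4.05 ± 0.34, with 124 ± 19.7 CPM in the PVN and 7.65 ± 5.58 CPM in the CEA (SD, n = 12). Asb4 (-2.97), Zim1 (-2.76), a zinc finger gene next to Peg3, Klf14 (-2.14) and Nap1l5 (-1.79) followed. Those most higher in the CEA were Ppp1r9a (0.68), Slc22a3 (0.57), Pon2 (0.50), Atp10a (0.44) and Htra3 (0.26).

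**Figure D3:**
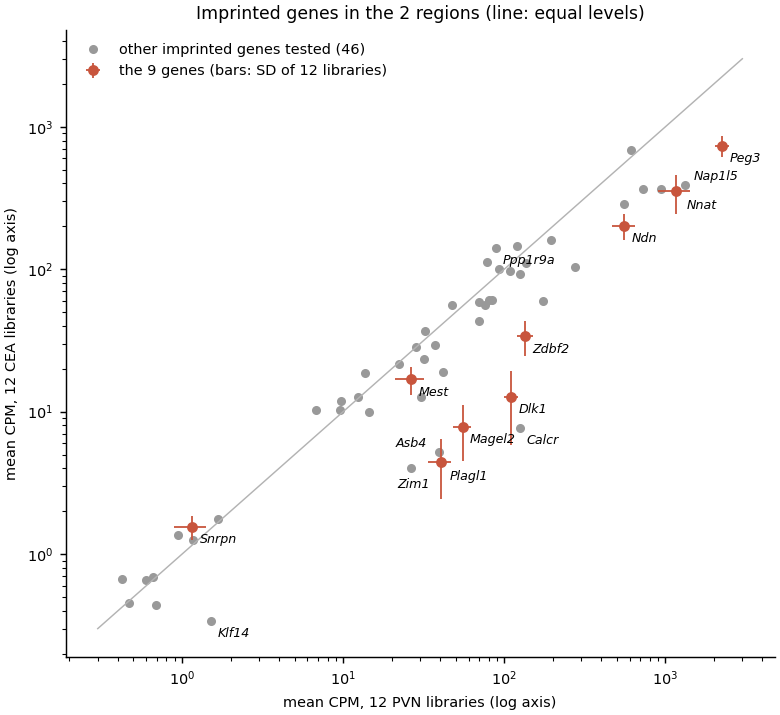
Mean CPM in the 12 CEA libraries (y axis, log) against mean CPM in the 12 PVN libraries (x axis, log) for the 9 genes (red, bars are SD) and 46 other imprinted genes tested (grey); the line marks equal levels. Of the 9 genes, 8 lie below the line, Plagl1, Dlk1 and Magel2 farthest, near Calcr, Asb4 and Zim1.

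The second comparison asked how the members in the PVN differed after hepatectomy. Nnat and Ndn, both highly expressed, had lower means after HT and Dlk1 a higher one, but none of the 9 passed the adjusted threshold. Nnat had 1837, 1168 and 1535 CPM in the NC libraries and 951, 1070 and 947 CPM in the HT libraries. Every HT library was below every NC library, and NC replicate 2 lay nearest to them. The log2 fold change of Nnat, HT against NC, was -0.59 ± 0.15 (unadjusted p = 0.00592, adjusted p = 0.418). Ndn had 782, 500 and 691 CPM in NC and 511, 500 and 483 CPM in HT. NC replicate 2 lay among the HT libraries, and the log2 fold change was -0.37 ± 0.15 (unadjusted p = 0.0375). Dlk1 had 96.0, 110 and 97.3 CPM in NC and 115, 110 and 129 CPM in HT, again with NC replicate 2 among the HT libraries. Its log2 fold change was 0.25 ± 0.10 (unadjusted p = 0.0455, adjusted p = 0.418, as for Ndn). These 3 of 9 stood beside 11% of genes with an unadjusted p under 0.05 and 0.012% with an adjusted one. The other 6 members had log2 fold changes of -0.21 to 0.36.

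The count of 0 rested on one library. Without PVN NC replicate 2, 5 of 9 members were called in HT against NC by edgeR: Nnat (-0.74, adjusted p = 0.00321), Ndn (-0.54, adjusted p = 0.00393) and Dlk1 (0.31, adjusted p = 0.0451), with Peg3 and Mest. The same fit called 3418 of all 16939 genes tested (20.2%), against 2 genes with all libraries, so calls rose over the whole table. With all libraries, DESeq2 called 0 of 9 as well. The summed level of 17 neuroendocrine hypothalamus markers moved the same way as Nnat and Ndn: it was 2965, 2368 and 3123 CPM in the NC libraries and 2260, 2241 and 1726 CPM in the HT libraries. The summed level of 6 PVN-defining markers was likewise lower in every HT library (410 to 936 CPM) than in every NC library (995 to 1349 CPM), as were ependyma and tanycyte markers, while endothelium markers were higher in every HT library. The part of these differences in the member values was not tested.

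In the other PVN comparisons no member had an unadjusted p under 0.05. For EA against HT, log2 fold changes ran from -0.10 to 0.14, with 5.67% of all genes under an unadjusted p of 0.05 and 0.0961% under an adjusted one. For SEA against HT they ran from -0.10 to 0.13, with 4.38% and 0% of genes. For EA against SEA they ran from -0.07 to 0.16, with 5.21% and 0%. EA, SEA and NC were each compared with the same 3 HT libraries, so these comparisons are not independent of each other. The 17 neuroendocrine markers were higher in every EA library (2330 to 2685 CPM) and every SEA library (2362 to 2466 CPM) than in every HT library. Both edgeR and DESeq2 called 0 of 9 members in each of the 3 comparisons.

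**Figure D4:**
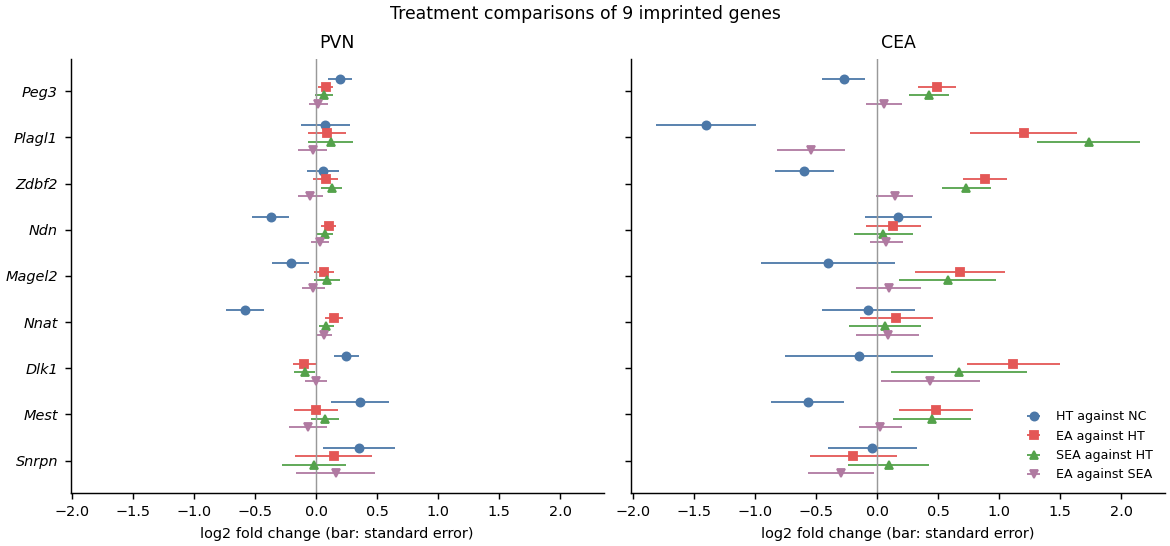
Log2 fold change of the 9 genes in 4 treatment comparisons in the PVN (left) and the CEA (right), with standard errors. In the PVN the values lie between -0.59 and 0.36. In the CEA most standard errors are wider and Plagl1 reaches -1.40 and 1.73.

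In the CEA, hepatectomy was accompanied by lower means of the zinc finger genes Plagl1 and Zdbf2, which did not pass the adjusted threshold. Plagl1 had 4.84, 6.14 and 4.21 CPM in NC and 0.860, 2.14 and 2.71 CPM in HT, so that all HT libraries lay below all NC libraries. The log2 fold change, HT against NC, was -1.40 ± 0.41 (unadjusted p = 0.00999). Zdbf2 had 44.9, 26.0 and 31.3 CPM in NC and 27.3, 19.4 and 20.4 CPM in HT, and HT replicate 1 lay above the lowest NC library. Its log2 fold change was -0.60 ± 0.24 (unadjusted p = 0.0395, adjusted p = 0.918, as for Plagl1). These 2 of 9 stood beside 3.75% of genes with an unadjusted p under 0.05 and 0% with an adjusted one. The other 7 ran from -0.57 to 0.18. Summed markers of astrocytes were lower, and those of microglia, endothelium and ependyma higher, in every HT library than in every NC library, and their part in the member values was not tested. Same-numbered CEA libraries of HT and NC deviated together, and Plagl1, Zdbf2, Mest and Peg3 were lower in HT within all 3 numbers. With the replicate number as a block, the first 3 of these had an unadjusted p under 0.05 (Zdbf2 -0.58 ± 0.14, unadjusted p = 0.00594), beside 985 of all 16413 genes, and Peg3 did not (-0.25 ± 0.14, unadjusted p = 0.119). No gene passed the adjusted threshold (adjusted p = 0.749 for each of the 3 and 0.753 for Peg3).

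For EA against HT in the CEA, 4 of 9 members had an unadjusted p under 0.05, all with higher means in EA, against 3.19% of genes. No gene of the table passed the adjusted threshold (0%), and the members' adjusted p was at least 0.930. Zdbf2 had 42.4, 44.2 and 37.7 CPM in EA, all above the HT values, and a log2 fold change of 0.88 ± 0.18 (unadjusted p = 0.00116). Peg3 had 867, 860 and 780 CPM in EA and 623, 573 and 582 CPM in HT (0.49 ± 0.16, unadjusted p = 0.0133). Dlk1 had 19.5, 17.8 and 18.8 CPM in EA and 7.21, 14.2 and 4.37 CPM in HT (1.12 ± 0.38, unadjusted p = 0.0186). Plagl1 had 3.35, 5.88 and 4.01 CPM in EA (1.20 ± 0.44, unadjusted p = 0.0252). For these 4 genes every EA library lay above every HT library. The other 5 members ran from -0.19 to 0.68. The regional markers differed between the same libraries. Central amygdala markers summed to 2305 to 3226 CPM in EA and 3668 to 4945 CPM in HT, and 10 striatum markers to 2775 to 4380 CPM in EA and 4617 to 7578 CPM in HT, with no overlap in either. What these marker differences reflect, and their part in the member values, was not tested.

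For SEA, in which no current was passed, 3 of 9 members had an unadjusted p under 0.05 against HT, beside 3.07% of genes and 0% with an adjusted one. Plagl1 had 5.80, 5.24 and 8.24 CPM in SEA (log2 fold change 1.73 ± 0.42, unadjusted p = 0.00402). Zdbf2 had 45.1, 33.9 and 33.3 CPM (0.73 ± 0.20, unadjusted p = 0.00737) and Peg3 had 940, 726 and 740 CPM (0.42 ± 0.16, unadjusted p = 0.0315). All 3 lay above the HT libraries without overlap, and the adjusted p of every member was at least 0.959. Here too the share of all genes that separate without overlap was not counted. Microglia markers were lower in every SEA library (414 to 508 CPM) than in every HT library (512 to 620 CPM), and their part in the member values was not tested. Central amygdala and striatum markers overlapped between SEA and HT. The HT libraries are the same as in the 2 comparisons before it, so low HT values enter all 3. Between EA and SEA 0 of 9 members had an unadjusted p under 0.05, beside 1.99% of genes and 0% with an adjusted one, and log2 fold changes ran from -0.54 to 0.44. DESeq2 also called 0 of 9 in each of the 4 CEA comparisons.

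Whether a treatment difference was itself different between the regions was tested as an interaction, the PVN difference minus the CEA difference. For HT against NC, 4 of 9 members had an unadjusted p under 0.05: Plagl1 (1.49 ± 0.44), Mest (0.96 ± 0.41), Zdbf2 (0.68 ± 0.29) and Peg3 (0.49 ± 0.20), all at adjusted p = 0.413. The share of all genes was 12.1% at an unadjusted and 0% at an adjusted p under 0.05. For EA against HT, 4 of 9 also had an unadjusted p under 0.05: Dlk1 (-1.21 ± 0.40), Plagl1 (-1.10 ± 0.43), Zdbf2 (-0.80 ± 0.21) and Peg3 (-0.41 ± 0.15), against 4.52% and 0% of genes. The lowest adjusted p was 0.564, that of Zdbf2. The remaining 5 ran from -0.52 to 0.42 in the first and from -0.61 to 0.35 in the second. Without CEA HT replicate 2, Dlk1 was called in the second (-1.78, adjusted p = 0.0260), among 8 of 17586 genes (0.0455%) called in that fit. No difference between regions in a treatment response was therefore shown with all libraries for any member by edgeR or DESeq2.

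The spread of several members within the CEA was also described against hypothalamic markers. The 17 neuroendocrine hypothalamus markers summed to 279 to 679 CPM in the CEA libraries and to 1726 to 3123 CPM in the PVN libraries. Within the CEA the sum was 607, 279 and 283 CPM in NC, 292, 679 and 285 CPM in HT, 535, 520 and 566 CPM in EA, and 628, 426 and 393 CPM in SEA. Oxt, the oxytocin gene, ranged from 7.61 to 77.9 CPM in the CEA, Sim1 was at or near 0, and Pmch was at 0 in all 24 libraries. All 3 EA libraries lay near the high end, with 1 of 3 in NC, in HT and in SEA above them. Most of the CEA sum came from Hap1 (median 175 CPM) and Sst (median 168 CPM), and Sst was also expressed at a median of 240 CPM in the PVN.

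Both the sum and the members were taken on the log2 scale. Across the 12 CEA libraries, Ndn followed the sum most closely, with Pearson's r = 0.975 and Spearman's rho = 0.965. Both had p = 1e-05, the smallest that 100000 permutations can give, and 0.00018 after adjustment over 18 relations (9 genes in 2 regions). These permutations ran over all 12 libraries of a region, across treatments, so they treat libraries of different treatments as exchangeable. The r was 0.965 without NC replicates 2 and 3, the 2 libraries farthest from the median on that scale, and 0.982 after subtraction of each treatment's mean. Dlk1 (r = 0.917, rho = 0.832, adjusted permutation p = 0.0012 and 0.00576), Magel2 (r = 0.912, rho = 0.874, adjusted permutation p = 0.00045 and 0.00351) and Nnat (r = 0.836, rho = 0.811, adjusted permutation p = 0.00677 and 0.00778) followed it as well. Their r without the 2 farthest libraries was 0.886, 0.899 and 0.826, and after subtraction of the treatment means 0.906, 0.924 and 0.876. Snrpn went the other way (r = -0.752, rho = -0.678, adjusted permutation p = 0.0156 and 0.0490), with r = -0.751 without the 2 farthest libraries. Peg3 (r = 0.623, rho = 0.483), Zdbf2 (0.473 and 0.476), Plagl1 (0.194 and -0.133) and Mest (-0.142 and 0.133) did not pass, at adjusted permutation p of 0.0631 or more. A p that misses the threshold does not show that they are unrelated to the sum. Because Hap1 and Sst carry the CEA sum, the relations were recomputed on the other 15 markers, a choice made after seeing the data. Ndn (r = 0.838, rho = 0.853), Dlk1 (0.789 and 0.692), Nnat (0.758 and 0.797) and Magel2 (0.741 and 0.720) still passed, at adjusted permutation p of 0.0470 or less. Without the 2 libraries farthest on that sum, HT replicate 1 and NC replicate 3, the r of these genes was 0.617 to 0.784. Snrpn no longer passed (-0.651 and -0.636, adjusted permutation p = 0.0628 and 0.0785). The part of the marker content in the treatment comparisons was not tested, and the points share library and depth with the sum.

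**Figure D5:**
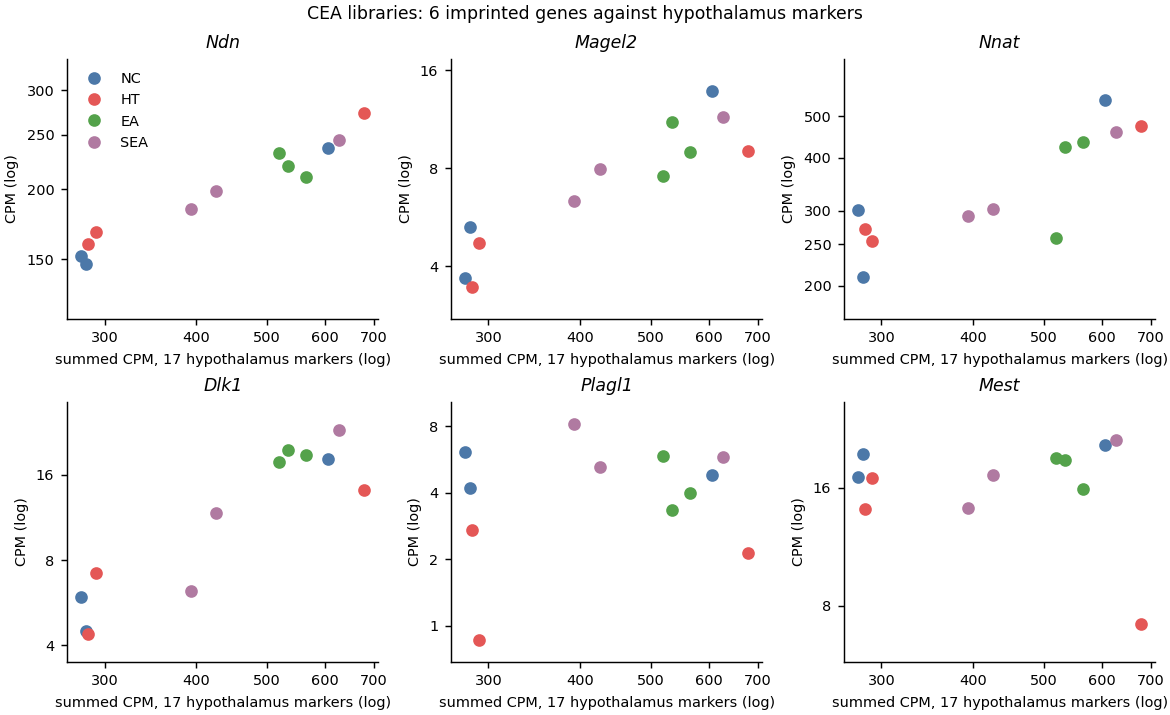
CPM of 6 members in the 12 CEA libraries (y axes, log) against the summed CPM of 17 neuroendocrine hypothalamus markers (x axes, log), coloured by treatment. Ndn, Magel2, Nnat and Dlk1 rise with the sum (r = 0.975, 0.912, 0.836 and 0.917), while Plagl1 and Mest do not (r = 0.194 and -0.142).

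In the 12 PVN libraries 2 members followed the same sum by both measures. Nnat had r = 0.795 and rho = 0.860 (adjusted permutation p = 0.00677 and 0.00408), and Ndn had r = 0.753 and rho = 0.678 (adjusted permutation p = 0.0143 and 0.0490). Without the 2 farthest libraries, HT replicate 3 and NC replicate 3, r was 0.866 and 0.813, and after subtraction of the treatment means 0.674 and 0.626. Dlk1 had r = -0.688 (adjusted permutation p = 0.0216), but rho = -0.483 did not pass, and r fell to -0.333 without PVN HT replicate 3 and PVN NC replicate 3, so the relation rests on those libraries. On the 15 markers without Hap1 and Sst, Nnat passed by rho alone (r = 0.675, rho = 0.832, adjusted permutation p = 0.0647 and 0.0131) and Ndn by neither (r = 0.576, rho = 0.476, adjusted permutation p = 0.112 and 0.182), while Peg3 passed by rho alone (r = -0.622, rho = -0.734, adjusted permutation p = 0.0647 and 0.0384) and Dlk1 by r alone (r = -0.693, rho = -0.552, adjusted permutation p = 0.0234 and 0.147). The other 6 members did not pass with all 17 markers. After subtraction of the treatment means, Plagl1 (r = -0.785) and Peg3 (r = -0.708) had larger values, of negative sign, than Nnat and Ndn. With no subtraction of treatment means, r was -0.515 for Plagl1 and -0.614 for Peg3 over the 12 libraries. Without the 2 farthest libraries these unsubtracted values were 0.07 and -0.577.

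The genes whose pattern over the 24 libraries was most like each member's were ranked by Pearson's r of log2 CPM among 16215 genes with a symbol. The libraries of both regions enter this r together, so region differences are part of it. Peg3 and Zdbf2 were among each other's nearest genes (r = 0.993), with Arl10 and Nrp2 near both (0.994 and 0.994 to Peg3). Nearest to Ndn were Maged1 (0.990), a further MAGE family gene, Zcchc12 (0.989) and Fxyd6 (0.987). Magel2 was most like Rab9b (0.994), Pnma3 (0.993) and the imprinted gene Grb10 (0.993). Nnat was most like Resp18 (0.985), Plpbp (0.984) and Gpx3 (0.984), and Plagl1 most like Prps1 (0.983), Aff2 (0.982) and Tox2 (0.980). For Dlk1 the nearest were AABR07040887.1 (0.991), RGD1311744 (0.990) and Baiap3 (0.990). Mest was most like Huwe1 (0.960), Gtf3c4 (0.949) and Ankrd50 (0.949), while no gene came closer to Snrpn than r = 0.769 (AABR07026957.1).

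Pairs of members were compared within a region after subtraction of each treatment's mean. Ndn and Magel2 had r = 0.853 in the PVN and 0.910 in the CEA, and Ndn and Dlk1 had -0.180 and 0.926. Of 72 such relations, tested by exact permutation within treatments, 0 passed the adjusted threshold, with adjusted p of 0.0926 for Ndn and Magel2 in both regions and 0.824 and 0.0778 for Ndn and Dlk1. The smallest p that the 1296 permutations allow is 0.000772, so no pair alone could have passed after adjustment over 72. A count of 0 therefore does not show that the pairs are unrelated.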

How the data were processed

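The table deposited by the authors holds whole-number read counts per gene for 24 libraries, without normalization. By the study's methods, reads were mapped with HISAT2 and counted with featureCounts, whose versions were not given in the sources used here. The methods name mRatBN7.2 and the submitters' notes name the human build GRCh38, but the largest gene end on chromosome 1 in the table, 282724300, is larger than chromosome 1 of mRatBN7.2. Coordinates are therefore the table's own, of an unnamed build. A stray second header line was dropped. It exchanges CEA EA replicates 2 and 3, and numbers here follow the sample titles. Counts were analysed with edgeR 4.0.16 in R 4.3.3 (filterByExpr, TMM, glmQLFit and glmQLFTest, two-sided, Benjamini-Hochberg over all genes tested, threshold 0.05), with each comparison fitted on its own libraries. DESeq2 1.42.0, its size factors, no filter, a fit of all libraries, a replicate block and leaving out each library were alternatives, and the scripts were tested on simulated data. Leaving out 3 CEA libraries with choroid plexus markers, and a marker sum without Hap1 and Sst, were added after seeing the data. Correlations used scipy 1.17.1.

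Members and lists were chosen with earlier results of these data known. All 9 members were named in region comparisons, and those with an unadjusted p under 0.05 in treatment comparisons. Of the other imprinted genes, the 5 called with the largest change in each direction were named, and of genes of like pattern the 3 nearest (for Snrpn the nearest). The labels do not say what a replicate number marks, so p-values measure the spread between these libraries. Same-numbered libraries deviated together, with every r over 0.1, for CEA against PVN in NC (0.293, 0.130 and 0.196) and for CEA HT against NC (0.239, 0.180 and 0.294) and in none of the other 10 pairs of groups. Counting and sampling error set the precision: 1 count was worth 0.0537 to 0.0760 CPM.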

Additional observations from a re-analysis of the deposited data

How the results depend on the processing

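Of 657 alternative values of the members' region log2 fold changes, 642 kept their direction and their side of the threshold. All 9 members stayed called over all treatments under every alternative, also without the 3 CEA libraries with choroid plexus markers (Snrpn at 0.44, adjusted p = 0.0258). The reversals were in values that had not passed the test: Mest in NC ran from -0.34 to 0.11 and Snrpn in EA from -0.15 to 0.35 when single libraries were left out. Mest lost its call in EA with the replicate block (-0.60, adjusted p = 0.0527) and in a fit of all 24 libraries (-0.65, adjusted p = 0.0681), and the cause was not tested. Snrpn passed in NC only in the fit of all 24 libraries (0.75, adjusted p = 0.0432). The block changed no other call of a member. Leaving out single libraries, the number of members called ran from 0 to 5 for PVN HT against NC and from 0 to 1 for the region difference in EA against HT. Without PVN NC replicate 2 the first called 3418 of all genes (20.2%), against 2 with all libraries, and without CEA HT replicate 2 the second called 8 of all genes (0.0455%), against 0; DESeq2 called 50 genes there and none of the members. Of the other 13 comparisons none moved by over 1.5 times. Depth limits Snrpn, with 13 to 31 counts, and Plagl1 in the CEA, with 13 to 103.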
